A study of Rattus norvegicus with 10 samples.

Results

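Fgf2 RNA was measured in lung tissue of male Wistar rats aged 8 weeks on 10 single-colour Agilent microarrays, 5 labelled LPS and 5 labelled control. The LPS rats are a model of septic shock brought on by lipopolysaccharide, a bacterial glycolipid that triggers innate immune signalling. The sources used here do not give its dose, route or time, or what the controls received. Fgf2 was measured by the probe A_44_P212850, which the files pair with the transcript NM_019305, and it is 1 of 30 genes that could be named among the 38804 probes other than controls. Fgf2 was chosen by its measured levels on these same arrays, which were higher in LPS than in control lungs with no overlap, so that contrast is described here with no test. Whether every sample is its own animal is not in the labels, so SDs and p-values cover only the spread among these 10 samples, which may be technical.

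Fgf2 encodes basic fibroblast growth factor, a secreted protein that binds heparan sulphate in the extracellular matrix and signals through the FGF receptors, which are receptor tyrosine kinases. It is known to drive the growth of fibroblasts, smooth muscle cells and endothelial cells, and in lung it is studied in vessel growth and repair of the air spaces. It has no classical signal peptide and leaves cells by an unconventional route. In whole lung tissue, more RNA per cell and a larger share of cells that make it cannot be told apart.

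On assembly GRCr8, RefSeq places Fgf2 on the plus strand of chromosome 2 from 122164454 to 122218796, 54343 bases. The last 766 bases of that span, from 122218031 to 122218796, also lie in Nudt6, which runs on the opposite strand from 122218031 to 122234488. The probe's own sequence and its place in the transcript were not analysed here, so its exon and whether it lies in the overlap are not known here. Whether the labelling kept the strands apart is not stated either. Nudt6 had no probe that could be named. The 250 bases before the annotated start of the gene, chr2:122164204-122164453 of GRCr8 on the plus strand, are shown as the sequence next to the transcript whose level was measured, and were taken from RefSeq:

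Fgf2 upstream: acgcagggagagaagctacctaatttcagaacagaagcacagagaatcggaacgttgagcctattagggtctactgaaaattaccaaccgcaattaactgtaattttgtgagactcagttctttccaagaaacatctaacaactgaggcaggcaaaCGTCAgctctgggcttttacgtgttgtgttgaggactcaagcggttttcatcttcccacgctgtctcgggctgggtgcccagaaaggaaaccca

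The capitals mark the only match among the motifs searched on both strands, TGACG on the minus strand, which is part of the cyclic AMP response element. It starts 94 bases before the gene's start, and 18.2% of 33469 rat gene windows of 250 bases hold TGACG. The TATA motif TATAAA (in 12.9% of windows), the GC box GGGCGG (30.5%), a form of the NF-kB motif (0.0956%), the AP-1 motif TGACTCA (4.05%) and the full cyclic AMP response element TGACGTCA (1.59%), which contains TGACG, were not found in these letters. These arrays measured RNA and not the promoter, and a match is a description of the letters.

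Fgf2 was higher on all 5 LPS arrays than on all 5 control arrays. As a share of each array's 75th percentile of spot signal, the Fgf2 signal was 15.4% in control replicate 15, 17.4% in replicate 16, 19.6% in replicate 17, 14.2% in replicate 18 and 13.4% in replicate 20. In LPS lungs it was 31.5% in replicate 1, 34.0% in replicate 3, 36.2% in replicate 5, 79.5% in replicate 6 and 41.9% in replicate 7. The controls thus lay close together, 4 of the LPS arrays formed a group above them, and LPS replicate 6 stood above the rest. On the log2 scale, relative to the 75th percentile, the mean was -1.25 ± 0.54 (SD, n = 5) in LPS and -2.66 ± 0.22 (SD, n = 5) in control lungs. The difference of 1.40 is 2.65-fold. Between the lowest LPS array, replicate 1 at -1.66, and the highest control, replicate 17 at -2.35, the gap was 0.69. In order of level, only 2 steps between neighbouring arrays were wider than the SD of the group: that gap, and the step of 0.92 from LPS replicate 7 to replicate 6.

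**Figure D1:**
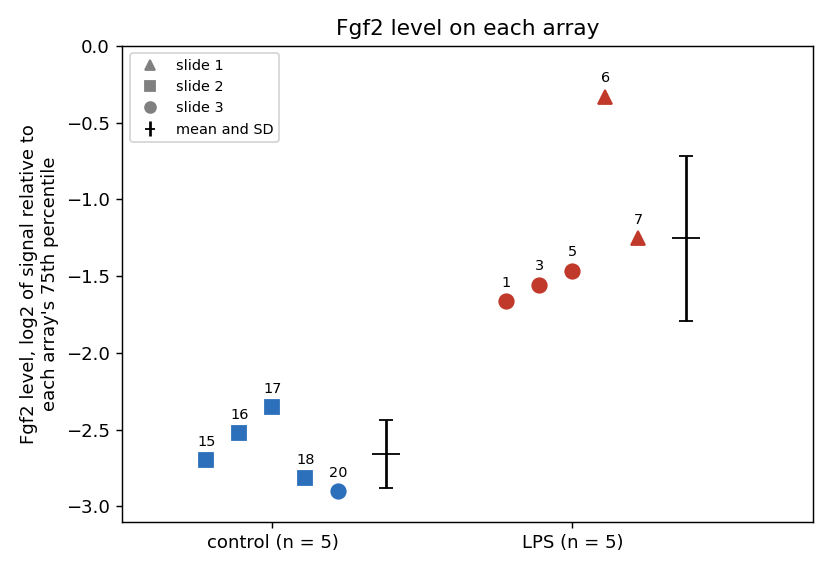
Fgf2 level on each of the 10 arrays, as log2 of the processed signal relative to the array's 75th percentile (vertical axis), for 5 control and 5 LPS arrays; numbers are the labels' replicate numbers, symbols the slides, and bars the group mean and SD. All LPS arrays lie above all controls, and LPS replicate 6, at -0.33, lies 0.92 above the next array.

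Among all 36020 probes tested, the LPS arrays lay wholly above the controls for 7.08%, and 33.2% passed an adjusted p of 0.05 for LPS against control in limma. That fit takes no account of slide, which is largely tied to group on these arrays: with slide as a block 10% passed, and without control replicate 20, the 1 control that shared a slide with LPS arrays, 54.7% passed. Without control replicate 17 or 18, 7924 and 7967 probes passed, against 11954 with all arrays. These shares are the background for this contrast, and nothing is read from them for Fgf2, which was chosen in it. The difference of Fgf2 was met or passed by the rise of 375 other probes, 1.04% of those tested, of which 296 also had no overlap between the groups. Nearly all of these probes carry codes of a custom design that could not be matched to a gene.

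The signal itself, before any scaling, was low in control lungs. The geometric mean over spots was 51.4, 46.2, 58.0, 40.7 and 58.6 units in control replicates 15, 16, 17, 18 and 20. It was 116, 138, 171, 380 and 197 units in LPS replicates 1, 3, 5, 6 and 7. The lowest LPS array thus had more signal than the highest control, also with no scaling. The median local background at these spots was between 16 and 23 units on each array. The background-subtracted signal was 1.94 to 2.97 times that background on controls and 6.44 to 19.0 times on LPS arrays. Even so, all 100 spots of the probe, 10 on each array, were well above background, none was marked as an outlier and none was saturated. The control signal was thus dim but measured, and the size of the fold depended on how background was treated: 2.21-fold with no background subtraction and 1.74-fold after normexp correction, in which 50 units are added to every spot, close to the control signal of Fgf2 itself.

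Scaling between arrays also bears on the size. That 75th percentile lay between 266 and 334 units on control replicates 15 to 18 and between 367 and 478 on the other 6 arrays. Without scaling the log2 difference of Fgf2 was 1.86, or 3.62-fold, while the median difference of all tested probes was 0.40; with scaling on the 75th percentile that median was -0.056. Relative to the median probe, Fgf2 was 1.46 higher under both. This equality is fixed by the method, since such scaling shifts every probe of an array by the same amount. After quantile normalization the difference was 1.44. In the authors' deposited table of log2 values, the Fgf2 value on each array differed from that quantile normalization by at most 0.00382, and the difference there was 1.44 as well. With each of the 11 ways of making the values shown in the plot of processing choices, the lowest LPS array lay above the highest control.

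**Figure D2:**
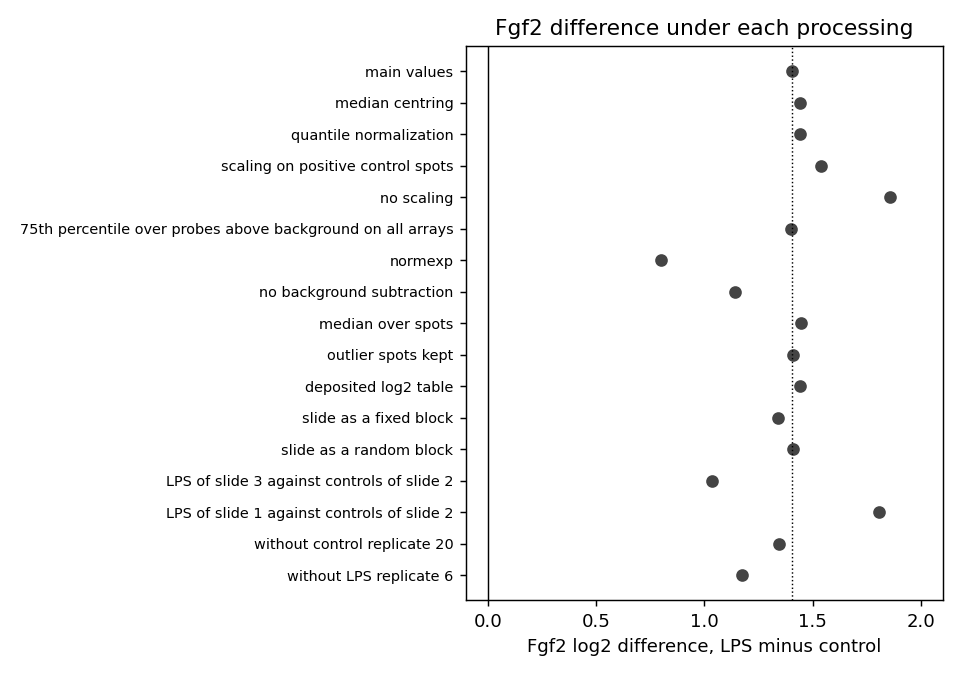
Log2 difference of Fgf2 between LPS and control arrays (horizontal axis) under each way of processing the values, of treating the slides and without control replicate 20 or LPS replicate 6 (vertical axis); the dotted line marks the main value of 1.40. Every value plotted is above 0, from 0.80 with normexp correction to 1.86 with no scaling.

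The arrays lay on 3 slides, taken from the scan stamps of the files. LPS replicates 6 and 7 were on slide 1, control replicates 15 to 18 on slide 2, and LPS replicates 1, 3 and 5 with control replicate 20 on slide 3. Slide and group are thus largely tied, and slide 3 alone holds both. Control replicate 20 correlated across probes with the other controls at 0.964 to 0.971, less than they did with one another (0.992 to 0.994), and with the LPS arrays at 0.971 to 0.983. Probes are not independent replicates. Between 90.1% and 93.8% of spots were well above background on each array.

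On slide 3 the log2 level of Fgf2 was -1.66, -1.56 and -1.47 in the LPS arrays and -2.90 in control replicate 20. The difference was 1.34, or 2.53-fold, and it rests on 1 control. Slide as a fixed block gave the same value, since no other slide informs it. As a random block the value was 1.41. The slide 3 LPS arrays were 1.04 above the slide 2 controls, and the slide 1 LPS arrays 1.81 above them. Without control replicate 20 the difference was 1.34, and without LPS replicate 6 it was 1.17. So the array that stands apart from the other controls over all probes held the lowest scaled Fgf2 level of the 10. Before scaling, its Fgf2 signal of 58.6 units was the highest of the controls. Without that array no slide holds both groups, so the 1.34 found then cannot be told apart from a difference between slides.

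Control replicate 20 was also set against the other controls, although the choice of Fgf2, with no overlap between groups, already placed it below the LPS arrays. Control replicate 20 minus the slide 2 controls was -0.30 ± 0.21 (SE) on the log2 scale for Fgf2. The lone array is assumed to vary like the other 4, which 1 array cannot show. The SE rests on that assumption, and no p-value is given. In the same fit 33.8% of probes passed an adjusted p of 0.05, and 66.6% differed by at least as much as Fgf2. The sign of the Fgf2 difference rested on scaling: before it, control replicate 20 was 0.27 above the mean of the slide 2 controls. With normexp correction the value was -0.36.

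Among the LPS arrays, Fgf2 was 0.77 ± 0.27 (SE) higher on the log2 scale on slide 1 than on slide 3, or 1.7-fold, with a limma adjusted p of 0.507 and an unadjusted p of 0.026. The design was 2 arrays against 3, and in this fit 0.00278% of probes, 1 in all, passed the adjusted threshold, while 9.5% had an unadjusted p under 0.05. A log2 difference of this size or more was seen for 2.12% of probes. The 2 arrays of slide 1 differed from each other by 0.92, LPS replicate 6 at -0.33 and replicate 7 at -1.25. Without LPS replicate 6 the slide difference was 0.31 and without replicate 7 it was 1.23, with limma adjusted p values of 1 and 0.117. The difference between slides thus did not pass, and its size depended on which of the 2 arrays was kept.

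The LPS arrays had an SD of 0.54 and the controls one of 0.22, a ratio of 2.43. An exact permutation test of the log2 ratio, 2-sided, with the 10 group-centred arrays assigned to sets of 5 in all 252 ways, gave p = 0.389, where the smallest p possible is 0.00794. Without LPS replicate 6 the log2 ratio turned from 1.28 to -0.35, with a permutation p of 0.563. The larger SD of the LPS arrays therefore rested on that array, and without it their SD was below that of the controls. The test was chosen with the SDs known, on values chosen for no overlap between the groups. Nothing is therefore read from its p-values.

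The 10 spots of the probe on each array show how well 1 array's level was measured. The SD between spots on the log2 scale was 0.045 to 0.097 on LPS arrays and 0.15 to 0.28 on control arrays. Averaged over 10 spots, this leaves a standard error of 0.024 per LPS array and 0.064 per control array. Spot error accounted for 0.203% of the variance between LPS arrays and 8.37% of that between controls. The spread between arrays was thus mostly not spot noise, although spots of an array share their RNA, labelling and hybridisation. The median spot SD over arrays was 0.12 for Fgf2, which lies between the values of its LPS and control arrays. For 170 other tested probes with at least 10 spots, not matched for signal, the median was also 0.12.

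The spots are technical repeats, and Fgf2 was chosen with no overlap in their mean, so the values by position are a description. At each of the 10 positions the lowest LPS array lay above the highest control, by 0.54 to 0.84 on the log2 scale, and the difference of the means was 1.21 to 1.58, or 2.32- to 2.99-fold. Over all positions the dimmest of 50 LPS spots, in replicate 1, had a signal of 102.9 units, and the brightest of 50 control spots, in replicate 20, one of 67.4 units. The smallest difference was at the spot in row 151, where the controls had a mean of -2.51 against -2.80 at the spot in row 140 before it, while the LPS means there were -1.29 and -1.28.

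The Fgf2 spots in the last rows were brighter than those in the first rows, and more so on controls. The 3 spots in the last rows, 219 to 321, were 0.36 above the 5 spots of rows 90 to 140 on control arrays, with a range of 0.26 to 0.51, and 0.11 above them on LPS arrays, with a range of 0.044 to 0.18. The group difference was therefore 1.51, or 2.85-fold, over the first 5 spots and 1.26, or 2.40-fold, over the last 3. The spots in rows 151 and 190, left out of this contrast, did not follow the order of the rows. Their control means were -2.51 in column 68 and -2.79 in column 2. The spots of the last rows lay in columns 57 to 59, and the one in row 127, column 59, had a control mean of -2.79. The parts of row and column were not tested. On each array the Fgf2 slope over rows lay above those of 70.7% to 96.5% of 141 other repeated probes. These had 5 or more spots in the same rows. Set against those of the 141 within 2-fold of its signal, the Fgf2 slope was above all 43 on control replicate 15 and all 40 on control replicate 20, and above 18 of 25 on LPS replicates 3 and 5. The part of this trend in the group difference was not tested beyond these values.

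**Figure D3:**
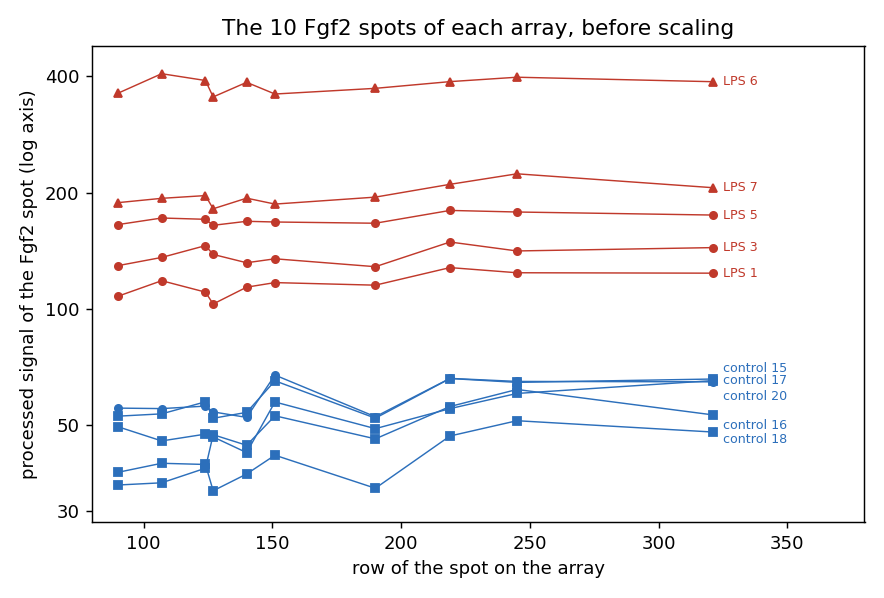
Processed signal of each of the 10 Fgf2 spots on a log axis, before scaling between arrays, against the row of the spot; each line is 1 array, red for LPS and blue for control, with slide 1 as triangles, slide 2 as squares and slide 3 as circles. The LPS arrays run from 102.9 units upward and all control spots lie at 67.4 units or lower.

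Other genes of FGF signalling could hardly be followed on this array. Of 104 genes in 7 lists of FGF ligands, receptors and co-receptors, release and binding proteins, signal transducers, feedback inhibitors and targets, other growth factors and the antisense neighbour, 3 had a probe that could be named, Fgf2 itself, Ptk2b and Gdnf. No FGF receptor, heparan sulphate carrier or feedback inhibitor was among them. Of the other two genes, 1 passed the limma threshold for LPS against control, where 18.2% of all probes passed as lower and 15% as higher.

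Ptk2b encodes a cytoplasmic tyrosine kinase of the focal adhesion kinase family. Its log2 level was -2.48, -1.66, -1.89, -1.25 and -1.75 in LPS replicates 1, 3, 5, 6 and 7, and -2.09, -1.74, -1.42, -1.77 and -3.26 in control replicates 15, 16, 17, 18 and 20. The groups overlapped, and control replicate 20 was the lowest of all arrays. LPS minus control was 0.25 ± 0.32 (SE; limma adjusted p 0.562), and without control replicate 20 it was -0.052. With slide as a block it was 1.24 (limma adjusted p 0.0449), a value set by that same lowest array, the only control on slide 3.

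Gdnf encodes a neurotrophic growth factor that signals through the RET receptor. Its log2 level was -5.77, -6.40, -6.12, -6.49 and -6.39 in LPS replicates 1, 3, 5, 6 and 7, and -5.46, -5.09, -5.18, -5.25 and -6.28 in control replicates 15, 16, 17, 18 and 20. Control replicate 20 lay among the LPS arrays, and the slide 2 controls lay above all of them. Gdnf fell by 0.78, with SE 0.22 and a limma adjusted p of 0.0207, and it was well above background on 8 of the 10 arrays. Its levels were far below those of Fgf2, which had a mean of -2.66 in control lungs. Fgf2 was itself dim there, at 40.7 to 58.6 units on the 5 control arrays. Gdnf thus lay near the floor, where a change of few units gives a large log2 difference. The slide 2 controls had the lowest 75th percentiles, 266 to 334 units, and levels are given relative to that percentile. The Gdnf difference was -0.64 with quantile normalization and -0.41 with normexp. The Gdnf difference without scaling was not analysed, and the part of scaling in it was not tested. With slide as a block LPS minus control was 0.18 (limma adjusted p 0.681), so the fall was not seen within slide 3. Without control replicate 20 it was -0.99 (limma adjusted p 0.00033), where 30.1% of all probes passed as lower and 24.6% as higher. With the block, where 5.28% of all probes passed as higher and 4.72% as lower, the 1 gene of the pair that passed was Ptk2b, not Gdnf. Both blocked values rest on control replicate 20 as the only control on a slide with LPS arrays.

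None of 55 marker genes of endothelial cells, fibroblasts, epithelial cells, macrophages, neutrophils, lymphocytes and red blood cells had a probe that could be named, so the lung label could not be set against its markers, and the part of cell makeup in the Fgf2 difference was not tested.

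Among the 29 named genes tested, those whose profile over the 10 arrays lay nearest to that of Fgf2 were Slc28a2, a nucleoside transporter, Ndfip2, an adaptor of ubiquitin ligases, and Napepld, the phospholipase behind N-acylethanolamine synthesis. Likeness was the root mean square distance between log2 profiles, each centred on its own mean, and was 0.57, 0.60 and 0.61. A gene at 1 constant level would lie 0.79 from Fgf2, so none was close, and 2044 tested probes, nearly all without a name, lay nearer than Slc28a2. Being chosen for likeness, these genes are described with no test.

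The log2 level of Slc28a2 was 4.24, 4.39, 4.91, 4.65 and 4.80 in LPS replicates 1, 3, 5, 6 and 7, and 4.05, 4.42, 3.94, 3.71 and 4.10 in control replicates 15, 16, 17, 18 and 20. Its groups overlapped, with control replicate 16 above LPS replicates 1 and 3. Ndfip2 was at 1.94, 1.96, 2.15, 2.25 and 2.07 in the LPS arrays and at 1.78, 1.89, 1.75, 1.81 and 1.31 in the controls, in the same order, with no overlap. Napepld was at -1.40, -1.38, -1.34, -1.75 and -1.26 in the LPS arrays and at -2.18, -1.62, -1.75, -2.10 and -2.49 in the controls, where control replicate 16 lay above LPS replicate 6 and control replicate 17 beside it. The log2 differences of these genes, 0.55, 0.36 and 0.60 in that order, were all smaller than the 1.40 of Fgf2. LPS replicate 6, the highest array for Fgf2, was also the highest for Ndfip2, at 2.25, and the lowest of its group for Napepld, at -1.75. With normexp correction the nearest genes were Ndfip2, Pop7 and Magoh, and without control replicate 20 they were Slc28a2, Ndfip2 and Cdh2.

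**Figure D4:**
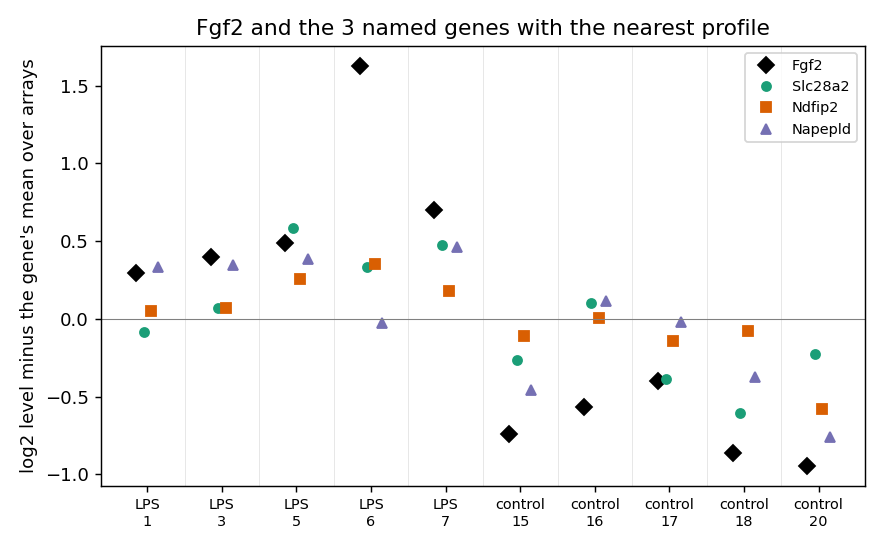
Log2 level of Fgf2 and of the 3 named genes with the nearest profile on each of the 10 arrays, each minus the gene's own mean over the arrays (vertical axis). Fgf2 spans a wider range than the others, and its peak in LPS replicate 6 is not shared in size by Slc28a2, Ndfip2 or Napepld.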

How the data were processed

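The deposited files give the linear intensity of each spot as written by Agilent Feature Extraction 11.0.1.1, background-subtracted and not normalized between arrays, per the file headers. A second, deposited log2 table of the authors names no tool; for Fgf2 it matched a quantile normalization within 0.00382. Levels are log2 of the processed signal, averaged over the spots of a probe not marked as outliers, minus each array's 75th percentile of log2 signal over spots other than controls. The 36020 of 38804 probes that exceeded background on 5 or more arrays entered limma 3.58.1 fits in R 4.3.3 (lmFit and eBayes, 2-sided, Benjamini-Hochberg adjustment over all tested probes, threshold 0.05). Random blocks used duplicateCorrelation with statmod 1.5.0. These fits were first tested on simulated data. Slides came from the scan stamps. Normexp used an offset of 50 on median spot and background signals. Names came from RefSeq accessions in the GRCr8 table, which gave 30 of 50 catalogue probes a symbol. The named genes are Fgf2, members of the FGF lists with a named probe, and the 3 genes nearest in profile. Fgf2, the lists and the tests were chosen with earlier results of these data known, and the motifs with the sequence in view. The number of arrays limits the precision.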

Additional observations from a re-analysis of the deposited data

Results flagged for a closer look

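The levels of Fgf2, Slc28a2, Ndfip2, Napepld, Ptk2b and Gdnf, and the spot SD and unscaled signal of Fgf2, were checked in each group of 5 arrays for an array far from the others. Of 16 such groups, 2 had one whose gap to the next array passed 0.71 of the group's range, and chance gives this in about 5% of groups. Ndfip2 was lowest among the controls in control replicate 20, with a gap of 0.751 of the range. Napepld was lowest among the LPS arrays in replicate 6, with a gap of 0.732 of the range. For the Fgf2 level itself, LPS replicate 6 had a gap of 0.692, under the critical value of 0.71.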

How the results depend on the processing

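The Fgf2 difference between LPS and control moved by more than the pooled SD of 0.41 in 2 of the 35 alternatives run. These gave 1.86 with no scaling and 0.80 with normexp. Leaving out an array or a slide could not turn its sign, since Fgf2 was chosen with no overlap between the groups. The difference was 1.17 to 1.51 when 1 array was left out and 1.385 to 1.426 when 1 spot position was left out. For control replicate 20 against the slide 2 controls, normexp gave -0.36, and leaving out 1 control gave -0.37 to -0.22. The slide difference among LPS arrays did not pass under any setting run, at 0.31 to 1.23 when 1 array was left out. The log2 ratio of SDs was -0.35 to 1.72 when 1 array was left out, and below 0 only without LPS replicate 6. Gdnf was at 0.18 with slide as a block, and Ptk2b at -0.052 without control replicate 20; the cause was not tested. Over all probes 11954 passed for LPS against control, 3601 with slide as a block, and 7924 to 19707 when 1 array was left out: 7924 without control replicate 17, 7967 without 18 and 19707 without 20. No paired analysis was possible because no replicate number occurs in both groups. In control lungs the signal, about 2 to 3 times the local background, limits the size of the fold.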
